A study of Mus musculus with 6 samples.

Results

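The genes described here are 57 listed members of the Wnt pathway, taken by symbol from the array annotation, and 55 of them were measured among the 18997 genes of the array. Each was represented by its brightest transcript cluster, the unit that summarises all probes of a transcript. Dkk1 was listed only in a cluster shared with other genes and Tcf7 was not matched, so neither was analysed here. RNA came from 6 arrays of SV40 large T antigen-immortalised mesenchymal stem cell clones from the hindlimb marrow of a Dicer flox/flox mouse. The 4 Dicer-null clones, with the genotype Dicer-/-, were 6.8 and 6.9 from line 6, and 12.2 and 12.4 from line 12. Adeno-Cre-GFP, a virus that carries the Cre recombinase, had been used on the parents, GFP-positive cells were sorted and single clones were grown again, with homozygous deletion tested by genotyping PCR. Their Dicer-carrying parents were clones 6 and 12, labelled Dicer+/+. All 6 cultures were undifferentiated. Levels of null clones are given below in the order 6.8, 6.9, 12.2, 12.4, and those of Dicer-carrying clones in the order 6, 12. Each array is 1 clone, all clones come from 1 mouse of 1 year of age, and no array held a Dicer-carrying clone that had gone through infection, sorting and cloning. Those steps therefore cannot be told apart from Dicer loss.

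Wnt proteins are lipid-modified ligands that bind frizzled receptors together with co-receptors of the Lrp or Ror families. In the canonical branch they stop a complex of Axin, Apc and Gsk3b from marking beta-catenin for destruction, and beta-catenin then acts on genes with TCF and LEF factors. R-spondins raise the response by binding Lgr receptors and removing the ubiquitin ligases Znrf3 and Rnf43, which take frizzled off the cell surface. Dkk, Sfrp and Wif1 proteins, sclerostin and Notum act outside the cell against the ligands or their receptors. In marrow stroma and bone this pathway is known for its part in osteoblast formation and bone mass.

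Values are log2 levels, and a change is a null clone minus its own Dicer-carrying parent. The targeted gene Dicer1 had levels of 4.66, 4.43, 4.47 and 4.64 in null clones, against 4.48 and 4.83 in Dicer-carrying clones. Its cluster summarises probes along the whole transcript, so it checks no label. The medians of the arrays over all genes lay between 3.62 and 3.67 in null clones, against 3.70 and 3.75 in Dicer-carrying clones. Of 13 measured mesenchymal stromal markers 9 had a mean level of at least 4, led by Col1a1 at 11.7, while Thy1 stayed between 2.57 and 2.74 in null clones and at 2.52 and 2.61 in Dicer-carrying clones. No haematopoietic marker exceeded 4.12 and no endothelial marker 3.46 on any array, and the highest means were those of Cd68 at 3.70 and Egfl7 at 3.22. In bulk RNA, fewer cells of a type and less RNA per cell cannot be told apart.

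The first comparison asked which Wnt pathway genes differed with Dicer loss. Lgr6, a receptor for R-spondins, rose in null clones, and Notum, a secreted enzyme that strips the lipid from Wnt proteins, fell. These were the 2 of 55 measured genes that passed, or 3.64%, against 0.59% of all 18997 genes, with limma and Benjamini-Hochberg adjustment over all genes. In each direction the background was 0.163% of genes higher and 0.426% lower. At an unadjusted p under 0.05 there were 12 of the 55, 6 higher and 6 lower, against 13.7% of all genes. The median change of the 55 was -0.05, against -0.02 over all genes. The median size of change was 0.49, against 0.15 over all genes. Dim genes weigh on that background: among genes with a mean level of at least 4 it was 0.74, against 0.34 over all genes.

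Many of these genes were low on the array. Of the 55, 35 had a mean level of at least 4 over the 6 arrays. Rspo3 lay just inside that bound at 4.09 and Fzd2 just outside it at 3.90. A mean change of at least 1 log2 unit in either direction was seen in 14 of the 55 or 25.5%, against 6.4% of all genes. It was positive in 5, against 2.97% of all genes, and negative in 9, against 3.43%. Among the 35 it was seen in 13 or 37.1%, against 11.5% of all genes at that level. There it was positive in 5, against 5.75%, and negative in 8, against 5.72%.

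**Figure D1:**
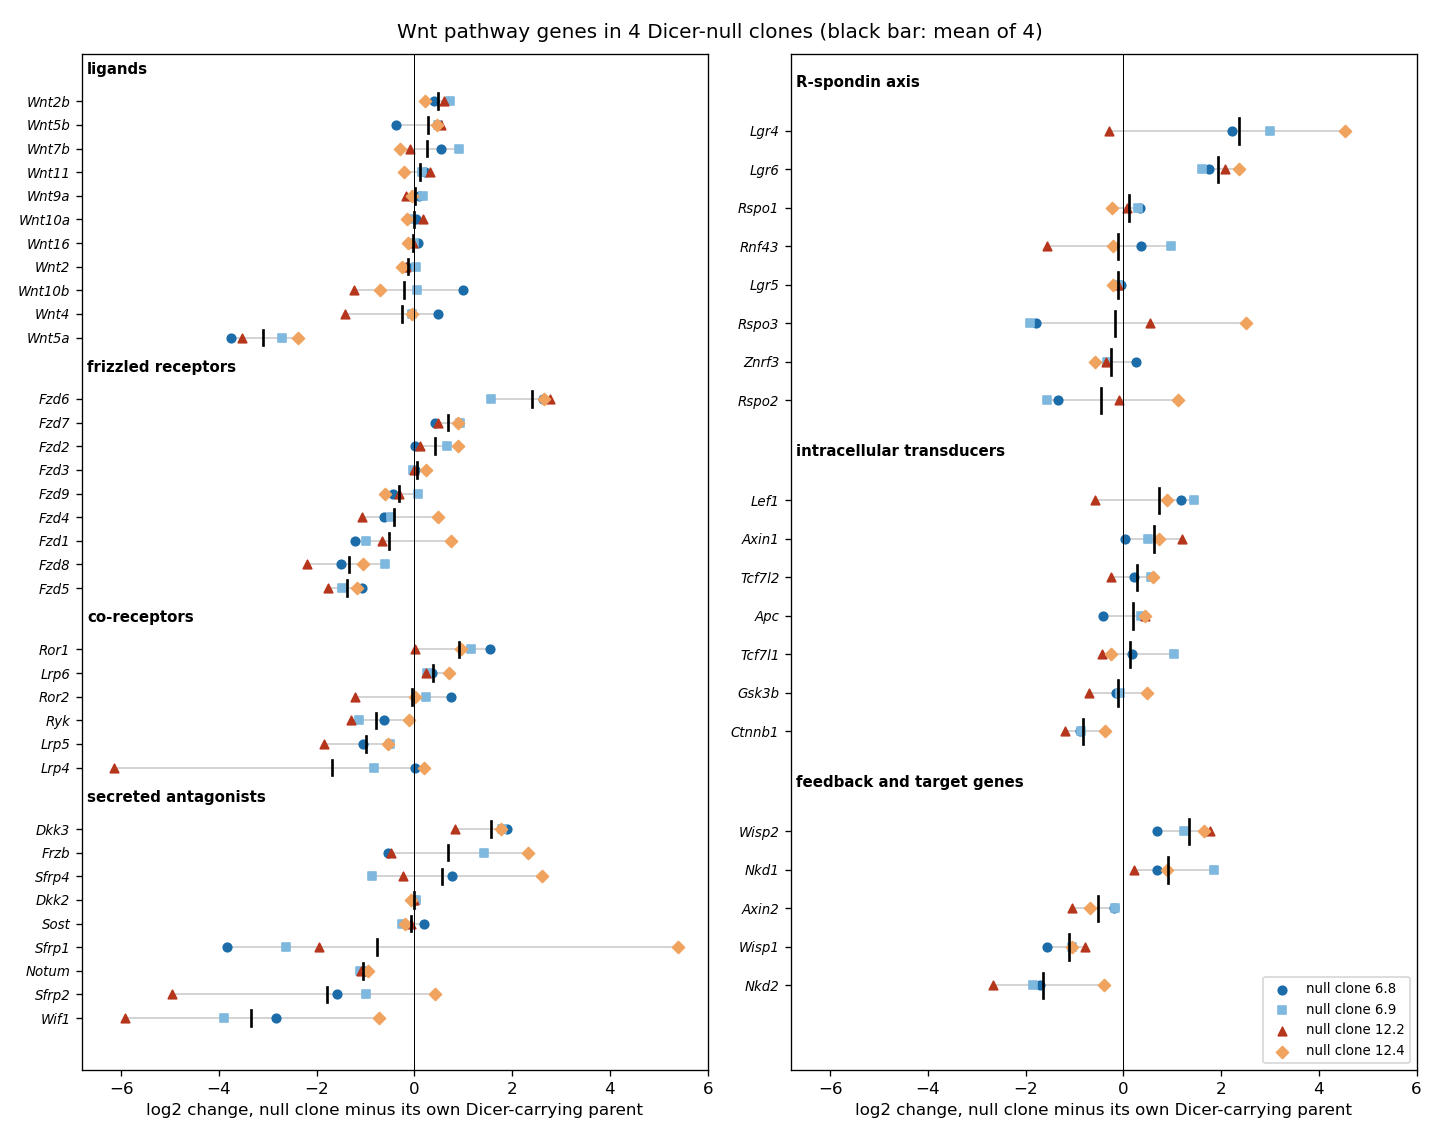
Log2 change of each of the 55 measured Wnt pathway genes in each Dicer-null clone against its own Dicer-carrying parent, by role. Coloured points are null clones, grey lines their span and black bars the mean of 4. Lgr6, Fzd6 and Wnt5a have all 4 points on one side of 0, while Sfrp1 runs from -3.83 in clone 6.8 to 5.39 in clone 12.4.

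Lgr6 was the 1 gene of the 55 that passed the test with a higher level. It had 8.70, 8.54, 8.29 and 8.57 in null clones, against 6.95 and 6.21 in Dicer-carrying clones. Every null clone was above both parents, and the null clones lay close together. The mean change was 1.95 ± 0.18 (SE of the fit), or 3.85-fold (limma, adjusted p = 0.0358). A second, dimmer transcript cluster of Lgr6 had 4.46, 4.52, 3.67 and 4.47 in null clones and 3.01 and 2.97 in Dicer-carrying clones, so the groups were separate there too. Lgr6 missed the threshold with its clusters averaged, at a change of 1.62 and an adjusted p of 0.0544, and at 0.0528 where the line was a random block and 0.0737 where the null clones of a line were averaged. It also missed with a further quantile normalisation, at 0.0526, and without any 1 array, at 0.0815 to 0.277 in limma.

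Notum had 2.93, 2.85, 2.75 and 2.89 in the null clones, against 3.96 and 3.85 in Dicer-carrying clones. The groups were separate, and all of these levels lay in the low part of the array's range. The change was -1.05 ± 0.10 (limma, adjusted p = 0.0394), and clone by clone it was -1.03, -1.11, -1.10 and -0.96. The SD was 0.075 among the 4 null clones and 0.077 between the 2 Dicer-carrying clones. With arrays centred on their medians Notum passed only just, at an adjusted p of 0.04997 in limma. Among the 10052 genes with a mean level under 4, 36 passed as lower and 1 as higher. Among the 8945 genes at 4 or more, 45 passed as lower and 30 as higher. The part of this lean of dim genes in the change of Notum was not tested. Notum missed the threshold with a further quantile normalisation at an adjusted p of 0.0683, with the null clones of a line averaged at 0.0806, and without any 1 array at 0.0815 to 0.317 in limma.

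Promoter sequences were read for genes that the RefSeq promoter table of GRCm38.p6 holds, with 33 of the 55 measured genes matched. Notum, the other gene that passed, was not matched, nor were Wnt5a, Fzd6 and Dkk3. The windows run from 250 bases before to 50 after the start of the gene. Lgr6 is shown as the gene that passed with a higher level. Fzd5 and Wif1 are shown as a receptor and an antagonist that were lower in all 4 null clones, though neither passed. The core of the TCF/LEF motif, CTTTG, was searched on both strands. It is contained in the longer forms CTTTGAA and CTTTGAT, which were searched too. Capitals mark the core. The Lgr6 window is chr1:135105227-135105526 on the minus strand, the Fzd5 window chr1:64737701-64738000 on the minus strand, and the Wif1 window chr10:121033754-121034053 on the plus strand.
Lgr6: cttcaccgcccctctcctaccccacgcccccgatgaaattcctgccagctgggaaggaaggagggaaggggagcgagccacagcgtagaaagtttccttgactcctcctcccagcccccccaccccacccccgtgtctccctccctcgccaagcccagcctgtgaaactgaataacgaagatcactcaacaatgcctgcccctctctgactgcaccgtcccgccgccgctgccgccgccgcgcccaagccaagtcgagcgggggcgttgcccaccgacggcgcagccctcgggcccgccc
Fzd5: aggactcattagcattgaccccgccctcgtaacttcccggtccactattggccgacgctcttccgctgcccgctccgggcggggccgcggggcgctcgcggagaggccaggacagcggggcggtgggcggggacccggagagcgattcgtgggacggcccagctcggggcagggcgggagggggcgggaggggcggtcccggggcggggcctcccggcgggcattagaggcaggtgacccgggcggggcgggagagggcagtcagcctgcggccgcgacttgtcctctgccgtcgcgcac
Wif1: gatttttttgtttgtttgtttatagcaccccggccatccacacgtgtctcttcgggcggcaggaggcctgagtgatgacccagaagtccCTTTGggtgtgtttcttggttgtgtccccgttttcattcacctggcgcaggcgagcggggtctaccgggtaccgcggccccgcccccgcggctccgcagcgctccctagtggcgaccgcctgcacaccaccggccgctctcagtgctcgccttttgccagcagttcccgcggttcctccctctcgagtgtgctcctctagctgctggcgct
The core was found 0 times in the Lgr6 window, 0 times in that of Fzd5 and 1 time in that of Wif1. It was in 53.9% of all 32851 windows and in 19 or 45.2% of the 42 windows of the matched Wnt pathway genes. The longer forms were in 8.65% of all windows, and in those of Wnt5b and Wnt11 here. The GC content was 67.7% for Lgr6, 75.7% for Fzd5 and 63.0% for Wif1, against a median of 52.7% over all windows. These windows had 24, 38 and 25 CpG, against a median of 7 over all windows. A match is a description of letters and says nothing of binding.

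Among the 11 ligands, 3 had a mean level of at least 4, and 0 passed. Wnt5a, a ligand known for signalling through Ror receptors without beta-catenin, had 2.87, 3.92, 2.62 and 3.77 in null clones, against 6.63 and 6.15 in Dicer-carrying clones. All null clones lay below both parents and in the low part of the array's range. The mean change was -3.10 ± 0.45 (limma, adjusted p = 0.0781). Wnt5a passed in 3 of 14 alternatives. These were without the parental block at 0.0457, with dim genes left out at 0.0368, and with trend and robust moderation at 0.0248 in limma. Wnt5a was kept in the fit without dim genes only through its Dicer-carrying levels, so that pass adds no support. It missed at 0.0582 where the line was a random block and at 0.0951 with a further quantile normalisation. Without 1 null clone it also missed, at 0.102 to 0.157 in limma.

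The other ligands at that level, Wnt4 and Wnt10b, had no common direction. Wnt4, a ligand known from kidney and gonad development, had changes of 0.48, -0.06, -1.42 and -0.05, with its lowest level of 3.26 in clone 12.2. Wnt10b, known for favouring osteoblasts over adipocytes in mouse marrow, had changes of 0.99 and 0.05 in clones 6.8 and 6.9, and of -1.24 and -0.70 in clones 12.2 and 12.4. Its Dicer-carrying parents differed too, at 4.96 in clone 6 and 6.20 in clone 12. The remaining 8 ligands had mean levels between 2.56 and 3.52. Of these Wnt2b had separate groups, with 2.99 to 3.39 in null clones and 2.65 and 2.78 in Dicer-carrying clones (limma, adjusted p = 0.329).

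**Figure D2:**
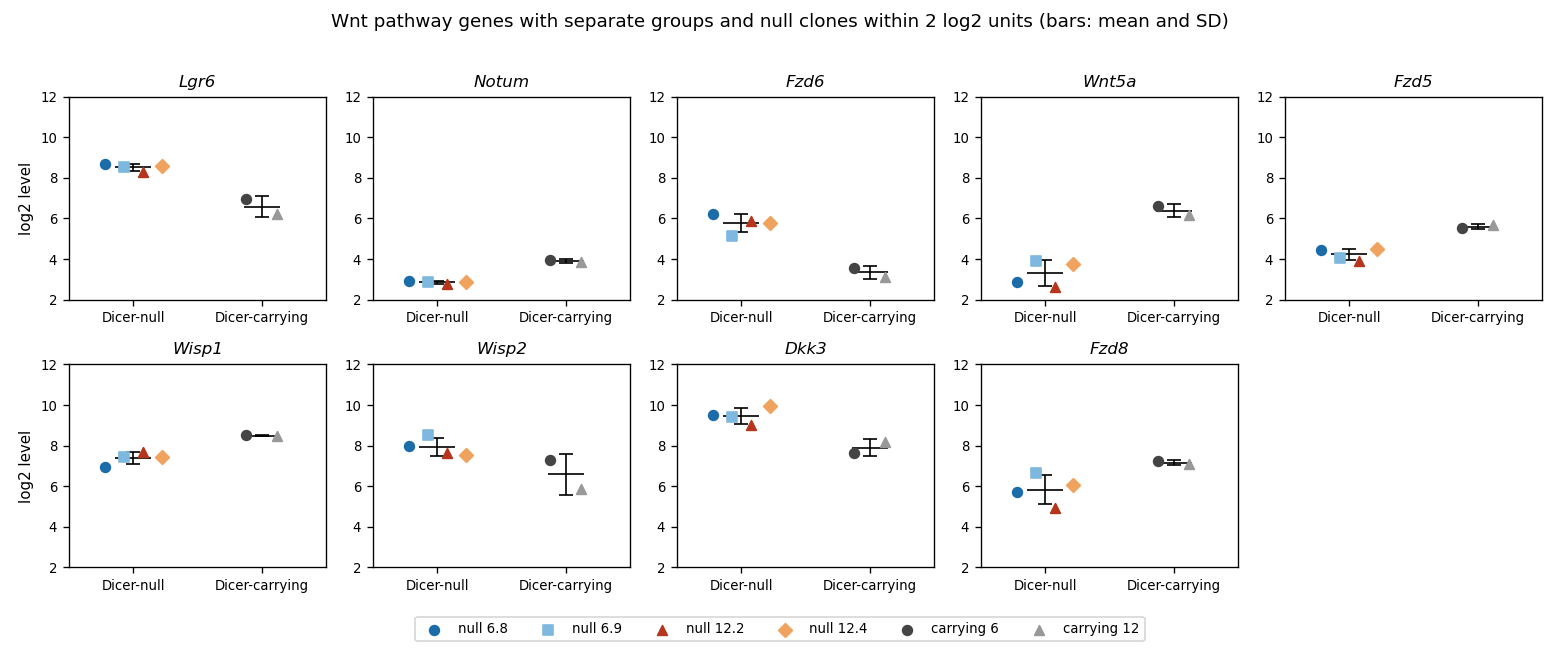
Log2 levels of 9 Wnt pathway genes with a mean change of at least 1 whose groups do not overlap and whose null clone changes span at most 2 log2 units. Points are clones, with Dicer-null left of Dicer-carrying, and bars give the mean and SD (n = 4 and n = 2). Lgr6, Fzd6, Wisp2 and Dkk3 lie higher in null clones and the other 5 lie lower.

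Frizzled receptors had changes of both signs, and 0 of 9 passed. Fzd6, a receptor known for tissue polarity, had 6.20, 5.15, 5.89 and 5.77 in null clones, against 3.58 and 3.12 in Dicer-carrying clones. Its groups were well apart, at a mean change of 2.41 ± 0.34, with the Dicer-carrying levels in the low part of the array's range. The adjusted p was 0.0760 in limma. It was 0.0393 without the parental block, 0.0499 where the line was a random block, 0.0407 with dim genes left out and 0.0261 with trend and robust moderation. Without clone 6.9, which had the lowest Fzd6 level of the null clones, it was 0.0411 in limma. These were the 5 of 14 alternatives in which Fzd6 passed. Fzd6 was kept in the fit without dim genes only through its null clone levels, so that pass adds no support. It missed at 0.168 with a further quantile normalisation and at 0.0704 with the null clones of a line averaged. Without 1 of the other null clones it missed at 0.143 to 0.156 in limma.

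Fzd5 and Fzd8 had the opposite direction, with all null clones below both parents. Fzd5 had 4.44, 4.05, 3.91 and 4.50 in null clones, against 5.52 and 5.68 in Dicer-carrying clones, a mean change of -1.37 ± 0.22 (limma, adjusted p = 0.0936). Fzd8 had 5.73, 6.64, 4.91 and 6.04 in null clones, against 7.24 and 7.10 in Dicer-carrying clones, a mean change of -1.34 ± 0.44 (limma, adjusted p = 0.289). Fzd7, close in sequence to Fzd1 and Fzd2, had 5.56 to 6.29 in null clones and 5.13 and 5.40 in Dicer-carrying clones. Its change of 0.68 ± 0.21 had an adjusted p of 0.259 in limma.

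The groups of Fzd1 and Fzd2 overlapped. Fzd1 had 6.24, 6.46, 5.82 and 7.23 in null clones, against 7.46 and 6.48 in Dicer-carrying clones, and clone 12.4 alone was above its parent. Fzd2 had changes of 0.02, 0.66, 0.11 and 0.88. Fzd3, Fzd4 and Fzd9 had mean levels of 2.78, 3.48 and 2.67. Fzd4, a receptor needed for retinal vessels, reached 4.54 in clone 12.4 and stayed under 3 in the other null clones, against 3.47 and 4.05 in Dicer-carrying clones.

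Of 6 co-receptors 0 passed, and Lrp4 differed most among the null clones. Lrp4, which binds sclerostin in bone, had 9.13, 8.29, 3.39 and 9.73 in null clones, against 9.12 and 9.54 in Dicer-carrying clones. Clone 12.2 was thus 6.15 log2 units below its parent while clone 12.4 was 0.19 above it. The mean change of -1.69 ± 1.89 had an adjusted p of 0.837 in limma, and without clone 12.2 it was -0.15.

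The canonical co-receptors Lrp5 and Lrp6 had opposite signs in all 4 clones. Lrp5 had 6.20, 6.74, 6.22 and 7.53 in null clones, against 7.25 and 8.07 in Dicer-carrying clones, with a change of -0.99 ± 0.42 and groups that overlapped. Lrp6 had 6.98, 6.88, 6.75 and 7.21 in null clones, against 6.62 and 6.51 in Dicer-carrying clones, with a change of 0.39 ± 0.16 and separate groups. The adjusted p was 0.409 for Lrp5 and 0.407 for Lrp6 in limma.

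The kinase-like receptors gave a mixed picture. Ryk, an atypical receptor kinase, had changes of -0.62, -1.13, -1.30 and -0.11, and its mean of -0.79 ± 0.38 had an adjusted p of 0.475 in limma. Ryk and Ctnnb1 are the 2 measured genes on chromosome 9. The 498 genes of that chromosome with a level of at least 4 had a median change of -0.43 relative to all genes at that level, and the part of this shift in the changes of Ryk and Ctnnb1 was not tested. Ror1, a receptor for Wnt5a, had 4.13, 3.74, 2.74 and 3.69 in null clones and 2.59 and 2.74 in Dicer-carrying clones. Clone 12.2 was level with its parent, at a change of 0.00. Ror2 had changes of 0.76, 0.23, -1.21 and 0.02, with no common direction.

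By median span, secreted antagonists varied most among the null clones of the 7 roles. Their 9 measured members had a median span of 2.88 log2 units across the 4 null clone changes, against 1.16 over all 55 genes and 0.52 over all genes of the array. Over all genes with a level of at least 4 it was 0.87, and over the 35 Wnt pathway genes at that level 1.47. Notum, described above, was the 1 that passed.

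Sfrp1 and Sfrp2 carry a frizzled-like domain that binds Wnt ligands. Sfrp1 had 4.43, 5.63, 3.12 and 10.5 in null clones, against 8.26 and 5.08 in Dicer-carrying clones. Clone 12.4 was thus the highest of all 6 arrays and clone 12.2 the lowest, and the parents differed by over 3 log2 units. Sfrp2 had 7.60, 8.21, 4.70 and 10.1 in null clones, against 9.19 and 9.66 in Dicer-carrying clones. The mean change was -0.76 ± 2.37 for Sfrp1 and -1.78 ± 1.53 for Sfrp2, with adjusted p of 0.964 and 0.764 in limma. Without clone 12.2 that of Sfrp2 was -0.56, and without clone 12.4 the change of Sfrp1 was -2.69.

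Wif1, a secreted protein that binds Wnt ligands, was lower in all 4 null clones. It had 7.68, 6.62, 3.48 and 8.68 in null clones, against 10.5 and 9.41 in Dicer-carrying clones. The groups did not overlap, but clone 12.2 lay far below its parent, at -5.93, and clone 12.4 near it, at -0.72. The mean change was -3.35 ± 1.49, and the adjusted p of 0.439 in limma was 0.0461 with the null clones of a line averaged. This was the 1 of 14 alternatives in which Wif1 passed. Dkk3, a member of the Dickkopf family, had 9.51, 9.42, 9.02 and 9.97 in null clones, against 7.62 and 8.19 in Dicer-carrying clones. Its groups were separate, at a mean change of 1.57 ± 0.31 (limma, adjusted p = 0.128).

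Sfrp4 and Frzb, also of the frizzled-related family, were highest in clone 12.4. Sfrp4 had 6.90, 5.27, 5.99 and 8.83 in null clones, against 6.13 and 6.23 in Dicer-carrying clones. Frzb had changes of -0.55, 1.41, -0.47 and 2.33. A second cluster of Frzb had the same signs, at -0.59, 1.31, -0.27 and 1.75. Dkk2 and Sost, the gene of sclerostin, stayed low, with mean levels of 2.73 and 3.06 and changes of -0.01 ± 0.09 and -0.08 ± 0.16.

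**Figure D3:**
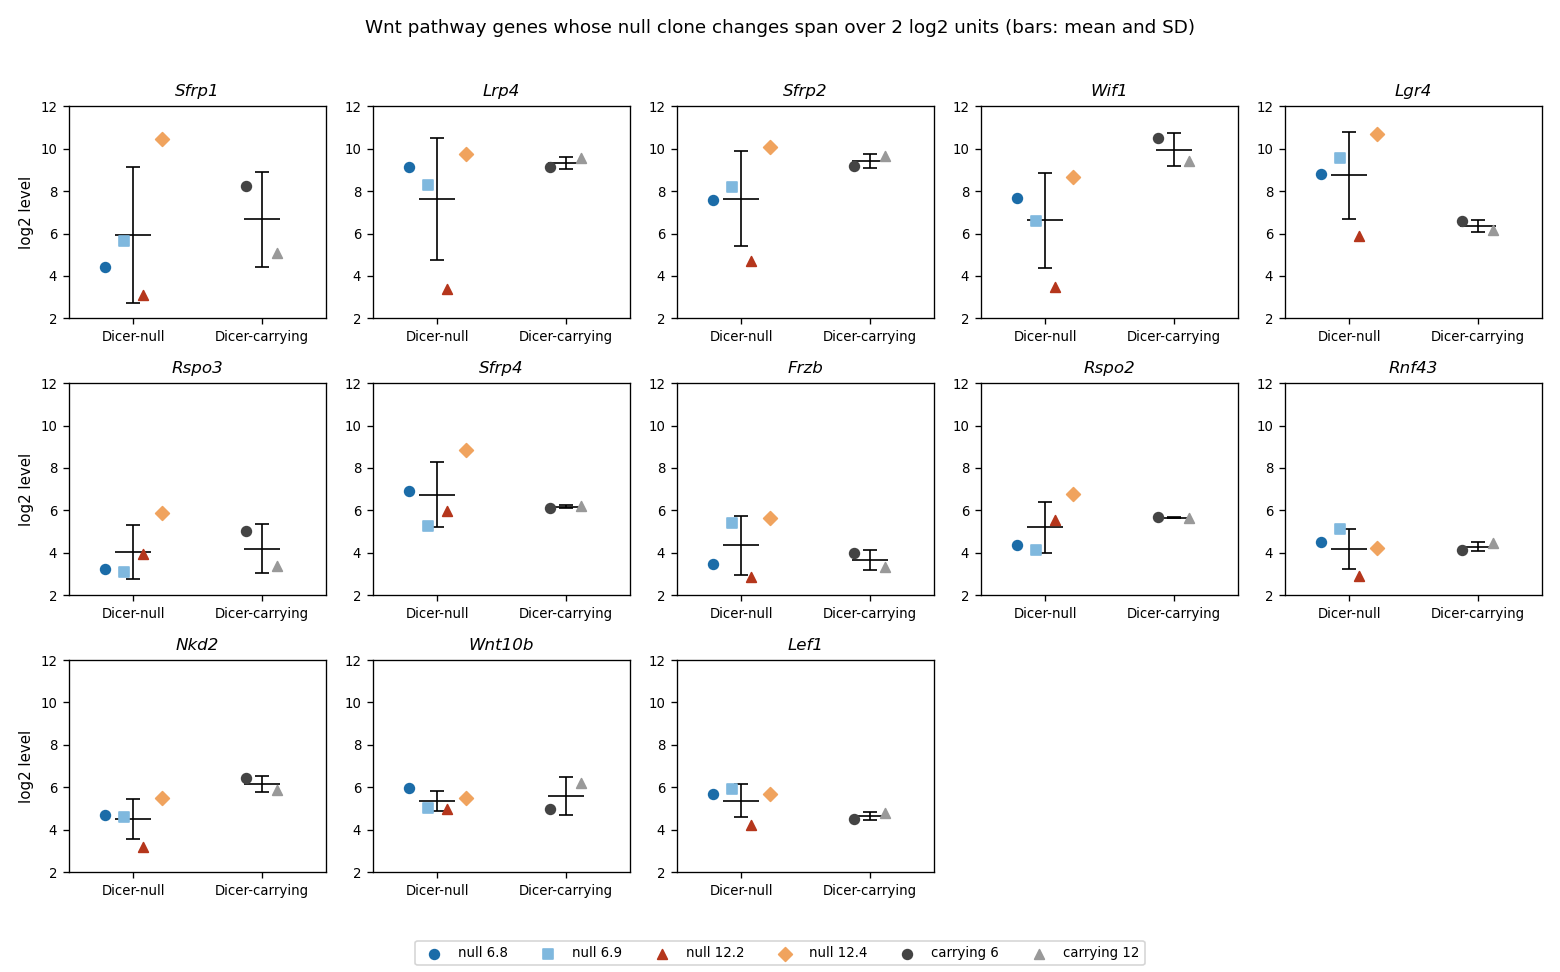
Log2 levels of the 13 Wnt pathway genes whose 4 null clone changes span over 2 log2 units, sorted by that span. Points are clones, with Dicer-null left of Dicer-carrying, and bars give the mean and SD (n = 4 and n = 2). By level, not by change, clone 12.2 is the lowest null clone in 10 of the 13 and clone 12.4 the highest in 10. The shares over all genes with so wide a span were not computed.

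On the R-spondin axis, Lgr4 and Lgr6 had the highest mean changes. Lgr4, a receptor for R-spondins, had 8.80, 9.58, 5.88 and 10.7 in null clones, against 6.57 and 6.17 in Dicer-carrying clones. It was above both parents in 3 null clones and below both in clone 12.2. The mean change was 2.37 ± 1.37 (limma, adjusted p = 0.584), and without clone 12.2 it was 3.44. Lgr6, in contrast, was higher in clone 12.2 as well, as given above. Lgr5, the third receptor of this kind, lay between 2.59 and 2.78 in null clones, against 2.81 and 2.80 in Dicer-carrying clones.

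The R-spondin genes Rspo2 and Rspo3 were below the parent in both null clones of line 6 and had no common sign over the 4 null clones. Rspo3 had 3.22 and 3.11 in null clones 6.8 and 6.9 against 5.01 in clone 6, and 3.92 and 5.88 in null clones 12.2 and 12.4 against 3.38 in clone 12. Rspo2 had 4.36 and 4.12 in clones 6.8 and 6.9 against 5.69 in clone 6, and 5.55 and 6.76 in clones 12.2 and 12.4 against 5.63 in clone 12. In the test of the response of line 12 minus that of line 6, Rspo3 differed by 3.37 at an unadjusted p of 0.0624 and Rspo2 by 1.97 at 0.0780, with a limma adjusted p of 0.9997 for both. Rspo1 had changes between -0.24 and 0.34.

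The ubiquitin ligases of this axis had changes with no common sign. Znrf3 had 8.49, 7.90, 8.42 and 8.19 in null clones, against 8.23 and 8.77 in Dicer-carrying clones, a change of -0.25 ± 0.22. Its second cluster had a mean change of 0.15, of the opposite sign. Rnf43 had 4.50, 5.10, 2.88 and 4.24 in null clones, against 4.13 and 4.45 in Dicer-carrying clones. Clone 12.2 was again the lowest, and the mean change was -0.11 ± 0.55.

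**Figure D4:**
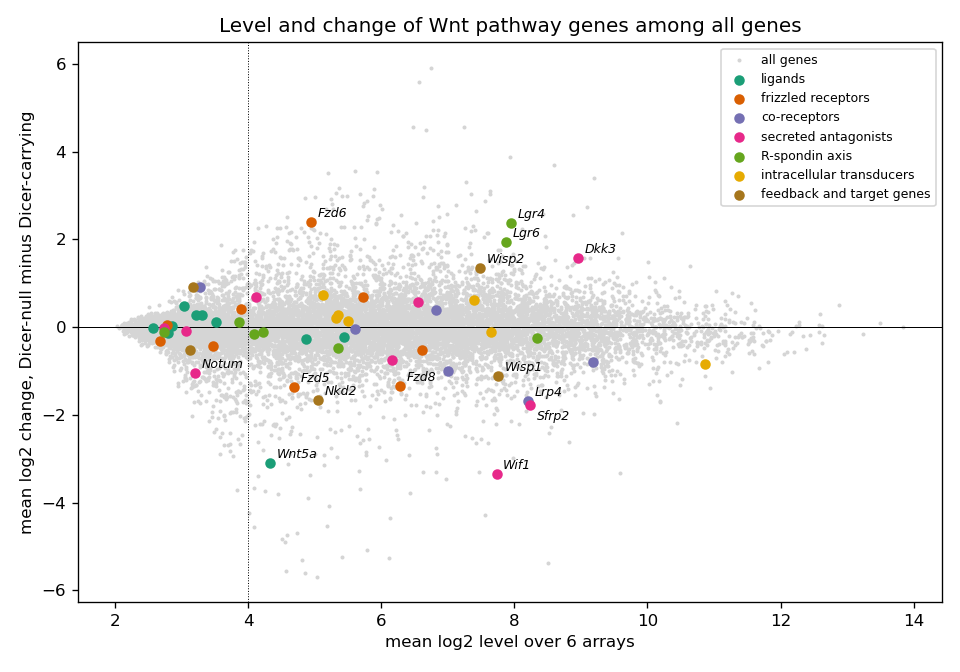
Mean log2 change, Dicer-null minus Dicer-carrying, against the mean log2 level over 6 arrays. Grey points are all 18997 genes and coloured points the 55 Wnt pathway genes by role, with those changed by at least 1 in either direction named. The dotted line marks a level of 4, and Notum is the 1 named gene to its left.

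The 7 intracellular transducers all had a level of at least 4. Of these 0 passed, and the median size of their changes was 0.29, against 0.34 over all genes at that level. Ctnnb1, which encodes beta-catenin, had 10.5, 10.5, 10.3 and 11.1 in null clones, against 11.4 and 11.5 in Dicer-carrying clones. All null clones were below both parents, at a mean change of -0.83 ± 0.25 (limma, adjusted p = 0.259). The shift of chromosome 9 given for Ryk stands beside this value too. The changes of Ctnnb1 against the parents were -0.89, -0.87, -1.20 and -0.37, where the relative medians of the chromosome were -0.47, -0.47, -0.61 and -0.26.

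The scaffold gene Axin1 had 7.34, 7.81, 7.87 and 7.40 in null clones, against 7.30 and 6.67 in Dicer-carrying clones. Its change of 0.62 ± 0.26 had an adjusted p of 0.405 in limma. The kinase gene Gsk3b had changes of -0.15, -0.07, -0.70 and 0.48. A second, dimmer cluster of Gsk3b varied more among the null clones, with changes of -0.14, 1.15, -1.98 and 0.30. Lef1, a DNA-binding partner of beta-catenin, had 5.67, 5.94, 4.20 and 5.67 in null clones, against 4.49 and 4.78 in Dicer-carrying clones. It was above both parents in 3 null clones and below both in clone 12.2, and its mean change was 0.74 ± 0.50 (limma, adjusted p = 0.662). Without clone 12.2 the change of Lef1 was 1.13. Apc, Tcf7l1 and Tcf7l2 had mean changes of 0.20, 0.13 and 0.29.

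The 5 genes listed as feedback and target genes of the pathway did not share a direction. Axin2, a feedback scaffold often read as a sign of the canonical branch, had 3.03, 3.07, 2.65 and 3.02 in null clones, against 3.23 and 3.71 in Dicer-carrying clones. The groups were separate at these low levels, and the change of -0.53 ± 0.21 had an adjusted p of 0.378 in limma. Nkd1 and Nkd2 encode inhibitors that bind dishevelled. Nkd1 had 3.24, 4.41, 2.79 and 3.46 in null clones and 2.56 and 2.57 in Dicer-carrying clones. Nkd2 had 4.71, 4.58, 3.20 and 5.47 in null clones, against 6.42 and 5.87 in Dicer-carrying clones.

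The pair thus lay on opposite sides of their parents in all 4 null clones, at changes of 0.91 ± 0.42 and -1.65 ± 0.65. Neither passed, at an adjusted p of 0.457 for Nkd1 and 0.374 for Nkd2 in limma. Wisp1 and Wisp2, matrix-associated proteins now named Ccn4 and Ccn5, also lay on opposite sides. Wisp1 had 6.95, 7.46, 7.69 and 7.43 in null clones, against 8.51 and 8.48 in Dicer-carrying clones, a change of -1.12 ± 0.20 (limma, adjusted p = 0.112). Wisp2 had 7.99, 8.54, 7.66 and 7.53 in null clones, against 7.29 and 5.88 in Dicer-carrying clones, a change of 1.35 ± 0.25 (limma, adjusted p = 0.115).

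All 4 null clones lay above both Dicer-carrying clones in 10 of the 55 genes, against 9.44% of all genes. They lay below both in another 10, against 13.9% of all genes. Together this was 36.4% of the 55, against 23.4% of all genes. Among the 35 genes with a level of at least 4 it was 14 or 40.0%, against 31.3% of all genes at that level. They were 7 above and 7 below, against 15.1% and 16.2%.

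The null clones differed from each other more in these genes than most genes did. A span of over 2 log2 units across the 4 changes was seen in 13 of the 55 or 23.6%, against 5.16% of all genes. All 13 had a level of at least 4 and made up 37.1% of the 35 at that level, against 9.55% of all genes there. Of the 83 other pathway genes measured, 11 had such a span. Both lists were chosen with earlier results of these data known. The null clones were then ranked by level across both lines, not by change against their own parent. By change the order differs in some genes, such as Sfrp1 and Wnt5a, and counts by change were not made. By level, clone 12.2 was the lowest null clone in 23 of the 35 or 65.7%, against 28.7% of all genes at that level. Clone 12.4 was the highest in 20 or 57.1%, against 26.4%. In 14 of the 35 both held at once, a count for which the share over all genes was not computed. The reverse was rare: clone 12.2 was the highest in 2, against 27.8%, and clone 12.4 the lowest in 1, against 23.0%. Clone 6.8 was the lowest in 5 and the highest in 6, against 17.8% and 15.8%. Clone 6.9 was the lowest in 6 and the highest in 7, against 30.5% and 29.9%.

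Changes of at least 1 log2 unit were counted in each null clone. Clone 12.2 was lower than its parent by at least 1 in 15 of the 35, against 9.01% of all genes at that level, and higher by as much in 4, against 9.35%. Clone 12.4 was higher by at least 1 in 10, against 9.85%, and lower in 4, against 5.65%. Clone 6.8 was higher in 5 and lower in 12, against 5.66% and 7.23%, and clone 6.9 higher in 8 and lower in 9, against 8.75% and 12.8%. These are values of single arrays with no replicate of a clone.

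Osteoblast markers were read beside this order. Of 8 listed, 5 were measured, and all 5 were lower than the parent in all 4 null clones. This held for 1913 of the 8945 genes with a level of at least 4. Phex was the 1 that passed, and Alpl had the highest mean, at 10.4. All 5 were lowest in clone 12.2, against 28.7% of all genes with a level of at least 4. Phex, though, had 3.93, 3.84, 3.43 and 3.46 in null clones, against 8.89 and 8.94 in Dicer-carrying clones, so clone 12.4 was close to 12.2 there. Ibsp had 8.96, 6.43, 3.08 and 8.34 in null clones, against 12.1 and 12.1 in Dicer-carrying clones, and was highest in clone 6.8 among the null clones. The median level of the 5 was 6.99, 6.11, 3.43 and 7.24 in null clones, against 9.23 and 9.34 in Dicer-carrying clones. Their summed signal, on the log2 scale, was 6.73 in clone 12.2 and 10.5 to 11.8 in the other null clones, against 13.2 and 13.3 in Dicer-carrying clones. Adipocyte markers, led by Pparg at a mean of 7.12, had median levels of 4.03, 4.51, 3.35 and 6.74 in null clones, against 5.87 and 4.92 in Dicer-carrying clones. Osteocyte markers, led by Dmp1 at 5.34, and chondrocyte markers, led by Sox9 at 4.52, had no members that passed. The osteocyte marker Pdpn went the other way in clone 12.2, with 3.95, 3.26, 8.43 and 2.80 in null clones, against 3.14 and 3.22 in Dicer-carrying clones. The summed osteocyte signal on the log2 scale was 6.27, 6.78, 8.57 and 5.43 in null clones, against 7.84 and 7.44 in Dicer-carrying clones. The part of these marker levels in the Wnt values was not tested.

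**Figure D5:**
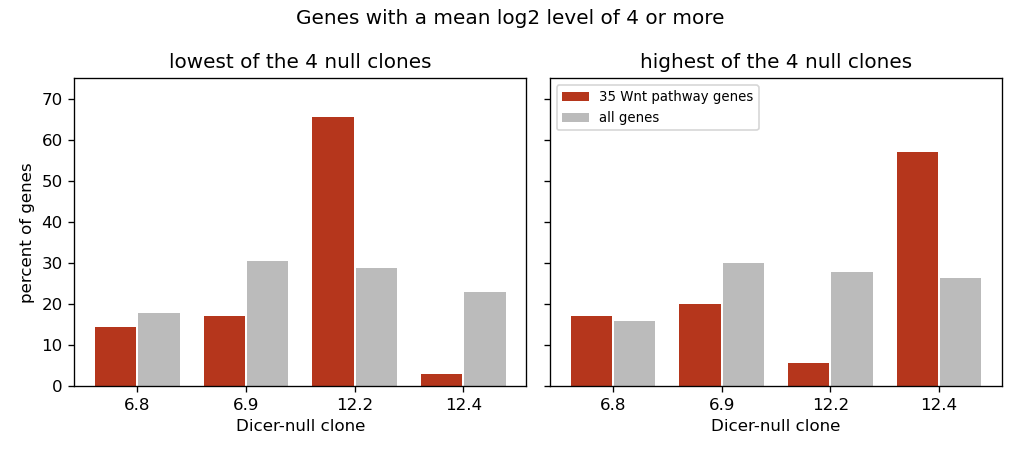
Share of genes in which each Dicer-null clone had the lowest or the highest level of the 4, among genes with a mean log2 level of at least 4. Red bars are the 35 Wnt pathway genes and grey bars all 8945 genes at that level. Clone 12.2 was lowest in 65.7% of the Wnt pathway genes and clone 12.4 highest in 57.1%.

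The next question was whether the lines respond differently. For the response of line 12 minus that of line 6, 0 of the 55 genes passed in limma and 0 had an unadjusted p under 0.05, against 0.0% and 3.0% of all genes. With 1 Dicer-carrying array behind each line and 2 residual degrees of freedom, the count does not show that the lines respond alike. For the lines themselves 0 of the 55 passed in limma, against 0.0% of all genes. An unadjusted p under 0.05 was found for Wnt4, Ror2 and Wisp2, against 5.26% of all genes. All 3 were lower in line 12 than in line 6, with line 12 minus line 6 at -1.34 for Wnt4, -1.499 for Ror2 and -0.92 for Wisp2. The adjusted p in limma was 0.941 for each.

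Other genes of the pathway were read from a list of 84, of which 83 were measured. Of these 0 passed in limma, against 0.59% of all genes, and 13 had an unadjusted p under 0.05, 4 higher and 9 lower, against 13.7% of all genes. Their median change was -0.03. Nlk, a kinase that acts on TCF and LEF factors, had 6.71, 6.73, 6.65 and 7.27 in null clones, against 5.08 and 4.89 in Dicer-carrying clones. Its groups were well apart, at a change of 1.85 ± 0.22 (limma, adjusted p = 0.0550). It was 0.0255 without the parental block, 0.0307 where the line was a random block, 0.0407 with dim genes left out and 0.0343 with trend and robust moderation. Nlk missed the threshold in every other alternative.

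Porcn, the enzyme that adds the lipid to Wnt proteins, had 4.14, 4.54, 3.83 and 4.43 in null clones, against 5.50 and 6.02 in Dicer-carrying clones. All null clones were lower, at a change of -1.53 ± 0.28 (limma, adjusted p = 0.112). Wls, the carrier that brings Wnt proteins to the surface, had a change of 0.67 ± 0.46. Tnfrsf11b, the decoy receptor osteoprotegerin, had 3.44, 3.31, 3.40 and 3.59 in null clones, against 4.70 and 6.60 in Dicer-carrying clones. Its change of -2.22 ± 0.42 had an adjusted p of 0.122 in limma.

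Apcdd1, a membrane inhibitor of Wnt signalling, had 7.40, 3.72, 3.83 and 7.17 in null clones, against 9.04 and 8.63 in Dicer-carrying clones. It was lower in all 4, with clones 6.9 and 12.2 far lower than the others, at -3.31 ± 1.40. Daam2, a formin that binds dishevelled, had 6.04, 7.03, 3.18 and 7.61 in null clones, against 4.16 and 4.00 in Dicer-carrying clones, and was again lowest in clone 12.2. The co-repressor Tle4 had a change of -2.24 ± 0.62, the Dkk receptor Kremen1 of -1.11 ± 0.25 and the beta-catenin cofactor Bcl9 of 1.16 ± 0.32. Changes were -1.62 ± 1.19 for Tnfrsf19, -1.06 ± 0.81 for the glypican Gpc4, -0.88 ± 0.78 for Amer1 and 0.57 ± 0.38 for the tankyrase Tnks2. Wnt9b, Wnt7a and Sfrp5 had changes of -0.15, 0.13 and -0.14. None of the genes named from this list passed.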

How the data were processed

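Total RNA was labelled with biotin, and each clone was measured on 1 Affymetrix exon array. The deposited values are on a log2 scale, 1 per transcript cluster and array. Partek 6.5 and RMA are listed, without their roles, per the submitters' processing notes. Their genome build was not found among the sources used here. RMA brings arrays towards a common distribution, so differences in RNA content of the cells may not be visible. The medians of the deposited values over all clusters still ran from 3.01 in clone 12.4 to 3.21 in clone 6.9. Precision is limited by having 6 arrays.

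Groups were taken from the titles. For 1 array the title gives clone 6.9 and the cell type field clone 6.8. It was taken as 6.9. Gene names came from the platform annotation, updated by Entrez identifier through the gene table of GRCm38.p6, which 22485 of 22781 clusters with 1 gene matched. The cluster with the highest mean stood for its gene, which left 18997 genes.

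The Dicer term was fitted in limma 3.58.1 (R 4.3.3) beside a fixed term for parental line, leaving 3 residual degrees of freedom. P-values were adjusted by Benjamini-Hochberg across the 18997 genes and called at 0.05. The block pairs null clones with the parent they were made from. Both null clones of a line share that parental array. No label states repeat cultures, so the p-values reflect only differences among these clones. The fit was tested on simulated data with independent noise and no difference between lines. That test cannot show how the fit behaves where null clones diverge or share a parent. The members and lists were chosen with earlier results of these data known. Genes named with values are those that passed, those with a mean change of at least 1 or null clone changes spanning over 2, the 2 of each role with the highest mean level and those nearest a level of 4, and further members were named after their values were seen. Alternatives covered the block, normalisation, clusters, dim genes, moderation, means of the null clones of a line and each array left out.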

Additional observations from a re-analysis of the deposited data

Results flagged for a closer look

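Over the 29 Wnt pathway genes named by rule, the levels of the 4 null clones were examined by Dixon's gap ratio, and 1 gene stood apart. Chance flags about 1 in 20 groups. Lef1 had a level of 4.20 in clone 12.2, below the other null clones, which had 5.67, 5.94 and 5.67.

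In 3 of the 29 genes the lines went opposite ways. Both null clones of line 6 lay on one side of their parent and both of line 12 on the other. The same held for 7 of the 55 measured Wnt pathway genes, these 3 among them. The share over all genes was not computed, so neither count shows that the lines respond differently. The change of line 12 minus that of line 6 was 3.37 for Rspo3, -1.49 for Wnt10b and -1.55 for Rnf43. By the interaction test in limma the adjusted p was 0.9997 for each. The Dicer-carrying parents of Rspo3 had 5.01 in clone 6 and 3.38 in clone 12, so the parental arrays differ as well.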

How the results depend on the processing

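The count of all genes past the threshold in limma was 112, and it was 220 with no parental block, 47 with a further quantile normalisation, 233 with trend and robust moderation, 15 with the null clones of a line averaged and 0 to 17 without 1 array. The count of Wnt pathway genes was 2, and it was 4 with no block, 0 with a further quantile normalisation, 1 with clusters averaged, 4 with trend and robust moderation, 1 with those clones averaged and 0 to 1 without 1 array. Of the other pathway genes, 1 passed, Nlk, with no block, where the line was a random block, with dim genes left out and with trend and robust moderation. The counts of 0 for the response and for the lines stayed 0 in each alternative run. Leaving out a Dicer-carrying array leaves its null clones with no parent, so those fits rest on the other line and the difference in response between lines could not be fitted. Notum is not in the fit with dim genes left out.

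Of 404 refits of the 29 named genes under 14 alternatives, 361 kept direction and side of the threshold, 9 came past it, 18 fell behind it and 16 turned sign. All 16 turned on leaving out 1 array, where the change ranged from -0.74 to 0.21 for Wnt4, -0.97 to 0.52 for Wnt10b, -1.11 to 0.049 for Fzd1, -3.23 to 1.72 for Sfrp1, -0.13 to 1.18 for Sfrp4, -1.45 to 0.52 for Rspo2, -1.85 to 1.52 for Rspo3, -0.89 to 0.67 for Rnf43 and -0.36 to 0.14 for Gsk3b. The cause was not tested. The count of 23 genes lowest in clone 12.2 was 20 with a further quantile normalisation, and that of 20 genes highest in clone 12.4 was 19 with clusters averaged, alternatives chosen after seeing the data. In the fit with a random line block the correlation of arrays of 1 line was -0.13. Array medians over genes differed by up to 0.13.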
